A study of Mus musculus with 8 samples.

Results

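The ERBB receptors and their EGF-like ligands were followed in mouse mammary epithelial cells and embryonic stem cells (ESC) as 10 genes of the 24062 in the expression table, chosen by symbol. The receptors were Egfr, Erbb2 and Erbb3, and the ligands were Areg, Ereg, Hbegf, Tgfa, Btc, Epgn and Nrg1. All 10 had a row in the table, and 9 of them were among the 13210 genes tested, which needed at least 1 FPKM (fragments per kilobase of exon, scaled to the depth of the library) in at least 2 of the 8 libraries. Btc was below that level in every library and is given without a test. Hbegf and Nrg1 passed only through the ESC libraries and Epgn only through the N libraries, so that these genes had to differ between some groups.

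The ERBB receptors are tyrosine kinases of the cell surface that work in pairs. EGF, TGFα, amphiregulin, epigen, epiregulin, betacellulin and HB-EGF bind EGFR, and the last 3 also bind ERBB4, whereas neuregulins bind ERBB3 and ERBB4. ERBB2 has no known ligand and serves as the preferred partner of the others, and ERBB3 has little kinase activity of its own and recruits PI3-kinase. The ligands are made as membrane proteins and are released by proteases such as ADAM17 and ADAM10, and the receptors then signal through RAS, RAF, MEK and ERK. In the mouse mammary gland amphiregulin is known for its part in the growth of ducts at puberty, and HC11 cells are commonly grown in EGF before lactogenic hormones are added.

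RNA was sequenced in 2 libraries of each of 4 groups. The ESC were the wild type line R1 of 129 background, grown on mouse embryonic fibroblast feeders with LIF, serum and inhibitors of MEK and GSK. Before harvest they were replated to remove the feeders, in DMEM with 10% FBS. For this last medium the methods name neither LIF nor the inhibitors. The other 3 groups were HC11, a wild type mammary epithelial line derived from COMMA-1D cells of Balb/c mice. Normal cells (N) were grown to confluence with 20 ng/ml EGF, 5 µg/ml insulin and 10% FBS. Primed cells (P) were then kept for 48 h without EGF, with 1 µg/ml hydrocortisone, 5 µg/ml insulin and 5% FBS. PRL cells then received fresh medium with 5 µg/ml prolactin, 1 µg/ml hydrocortisone, 5 µg/ml insulin and 5% FBS for a further 72 h. P and N therefore differed in EGF, hydrocortisone, serum and time together, and these cannot be told apart. PRL and P differed in prolactin, time and a further change of medium together, which cannot be told apart in the same way. Whether the replicates of a group are separate cultures is not said in the labels, and the p-values therefore measure the spread between these libraries, which may be technical. In RNA of whole cultures, fewer cells that make a transcript and less of it per cell cannot be told apart either.

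The FPKM correspond to 14707598 and 11938392 fragments in the ESC libraries and to 22903214 to 33916912 in the HC11 libraries. Summed FPKM of 6 ESC markers was 4550 to 4650 in ESC and at most 0.761 in HC11 libraries, with Zfp42 listed at 0 in all 6 of these. Summed FPKM of 5 milk protein genes was 120 to 138 in PRL and at most 0.609 elsewhere. The sum of 6 genes of dividing cells was 407 to 414 FPKM in N, 39.8 to 42.5 in P and 6.3 to 6.66 in PRL, and that of 6 basal epithelial markers was 3550 to 3600, 1240 to 1250 and 574 to 596 FPKM. Most of the basal sum was Krt14 and Krt5, and Cdh3 was also lower in each later group. Krt15 differed, at 15.4 and 18.2 FPKM in N, 341 and 322 in P, and 180 and 178 in PRL. Acta2 was highest in PRL, and Trp63 was not lower in P than in N. The dividing cell and basal sums both moved with every comparison among HC11 groups, and their part in the results was not tested. Krt5, a basal keratin gene, was listed at 0 in both ESC libraries. The ESC libraries differed in 14 fibroblast markers, with a sum of 266 FPKM in ESC replicate 1 and 39.6 in ESC replicate 2, a 6.71-fold difference with 13 of the 14 higher in replicate 1. HC11 cells made part of the same list, with sums of 463 to 1530 FPKM.

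Of the 7 ligand genes, 4 lay in a cluster on mouse chromosome 5, from 91027464 to 91402994 of GRCm38, a span of 375.5 kb. In order, these were Epgn (91027464 to 91035215), Ereg (91074622 to 91093646) and Areg (91139599 to 91148432) on the plus strand and Btc (91357261 to 91402994) on the minus strand. The gaps between these genes were 39.4, 46.0 and 208.8 kb, and no other gene of the table lay between Epgn and Areg. Egfr (16752203 to 16918158) and Erbb2 (98412470 to 98437716) lie on chromosome 11, Erbb3 (128567523 to 128589652) on chromosome 10, Tgfa (86195223 to 86275719) on chromosome 6 and Nrg1 (31814551 to 32884029) on chromosome 8.

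The sequences upstream of Areg and Epgn are shown because these were the 2 members called lower in P than in N, and that of Egfr because it is the receptor of both ligands and was not called. They are the bases before the first annotated start in the RefSeq promoter table (GRCm38.p6), and so are the reference genome and not the HC11 genome. The Areg stretch is chr5:91139349-91139598 and the Epgn stretch chr5:91027267-91027463, and the Egfr stretch is chr11:16751953-16752202, all on the plus strand. Capitals mark the cAMP response element (CRE) TGACGTCA and the TATA box TATAAA.
Areg: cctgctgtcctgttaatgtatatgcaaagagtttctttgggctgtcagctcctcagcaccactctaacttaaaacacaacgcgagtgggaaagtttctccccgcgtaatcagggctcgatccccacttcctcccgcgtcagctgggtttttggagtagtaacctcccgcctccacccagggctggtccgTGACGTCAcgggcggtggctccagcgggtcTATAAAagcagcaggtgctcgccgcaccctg
Epgn: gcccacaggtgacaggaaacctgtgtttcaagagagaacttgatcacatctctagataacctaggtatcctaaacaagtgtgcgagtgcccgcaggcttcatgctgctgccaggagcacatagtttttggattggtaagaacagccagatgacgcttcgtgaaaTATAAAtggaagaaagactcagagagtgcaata
Egfr: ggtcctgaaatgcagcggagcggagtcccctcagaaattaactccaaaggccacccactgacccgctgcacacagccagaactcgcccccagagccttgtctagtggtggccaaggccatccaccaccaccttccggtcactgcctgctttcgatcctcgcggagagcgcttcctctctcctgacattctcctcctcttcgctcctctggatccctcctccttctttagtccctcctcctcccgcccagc
Both strands were searched over the 250 bases before each RefSeq start, of which the stretches shown for Areg and Egfr hold all and that of Epgn the 197 before its earlier GENCODE start. Areg held the CRE at positions -61 to -54 and a TATA box at -31 to -26 from its start, with an Sp1 box, GGGCGG, at -52 to -47 between them. Epgn held a TATA box at -86 to -81 from its RefSeq start, which is position -33 from its GENCODE start. Egfr held an Sp1 box at -9 to -4 and an ETS site, CCGGAAG, at -120 to -114, both on the opposite strand. Of 32851 promoters, 1.55% held the CRE, 12.4% the TATA box, 32.7% the Sp1 box and 6.91% the ETS site. The AP-1 site TGANTCA, held by 6.75% of all promoters, the palindromic glucocorticoid response element, held by 0.387%, and the STAT site TTCNNNGAA, held by 7.02%, had no match in the windows of Areg, Epgn, Egfr, Erbb2, Btc and Tgfa, the 6 members searched. A match is a description of the letters and not of a bound site.

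The 3 receptors were present in every HC11 library and stood higher in N than in ESC, and none of them was called between HC11 groups. A gene was called where its absolute log2 fold change reached 1 and its adjusted p was under 0.001. Fold changes are on the log2(FPKM + 1) scale, which understates changes of low genes. Egfr, the receptor that EGF itself binds, had 1.21 and 0.924 FPKM in ESC, 4.29 and 4.12 in N, 4.77 and 4.68 in P, and 5.43 and 5.08 in PRL. The Egfr groups did not overlap, and ESC was the lowest. Erbb2 had 7.47 and 5.21 FPKM in ESC, 28.3 and 28.1 in N, 33.0 and 33.7 in P, and 27.6 and 25.8 in PRL. Erbb2 was the most abundant member in every HC11 library, and its highest values were in P. Erbb3 had 4.77 and 4.21 FPKM in ESC, 10.7 and 11.1 in N, 12.4 and 13.0 in P, and 8.35 and 8.30 in PRL.

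From ESC to N, Egfr rose with a log2 fold change of 1.33 (SE 0.10, adjusted p = 2.65e-05 from limma), Erbb2 with 2.01 (SE 0.14, adjusted p = 1.78e-05) and Erbb3 with 1.12 (SE 0.08, adjusted p = 2.34e-05). These calls held without any 1 of the 8 libraries. When only the ESC and N libraries were fitted, the adjusted p of the 3 receptors was 0.00114 to 0.00203 and they were no longer called. From N to P the log2 fold change was 0.14 for Egfr (95% interval -0.11 to 0.38, adjusted p = 0.319 from limma), 0.23 for Erbb2 (-0.10 to 0.57, adjusted p = 0.223) and 0.20 for Erbb3 (0.01 to 0.40, adjusted p = 0.0872). All 3 intervals left out a change of 2-fold in FPKM + 1 in either direction. They use a spread shared with the ESC libraries. With the N and P libraries alone, the limma adjusted p was 0.106 for Egfr, 0.00731 for Erbb2 and 0.0264 for Erbb3. The fold changes were the same and stayed below the threshold.

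Between P and PRL, Erbb3 had the largest difference of the receptors, with a log2 fold change of -0.56 (SE 0.08, adjusted p = 0.00375 from limma), beside -0.31 for Erbb2 (adjusted p = 0.133) and 0.13 for Egfr (adjusted p = 0.38). The median over all genes tested was -0.15 in that comparison and moved to 0.00 with median ratio scaling, under which Erbb3 stood at -0.36 (adjusted p = 0.00919). Between N and PRL, Egfr had a log2 fold change of 0.27 (95% interval 0.02 to 0.51, adjusted p = 0.0658), and with median ratio scaling 0.44 (adjusted p = 0.00534). Erbb2 stood at -0.08 in the same comparison (adjusted p = 0.697), and at 0.13 with median ratio scaling and 0.05 with quantile normalization, so that its direction depended on the scaling. Erbb3 had a log2 fold change of -0.35 from N to PRL (adjusted p = 0.0111), which was -0.16 with median ratio scaling (adjusted p = 0.0854) and -0.19 with quantile normalization (adjusted p = 0.0769).

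**Figure D1:**
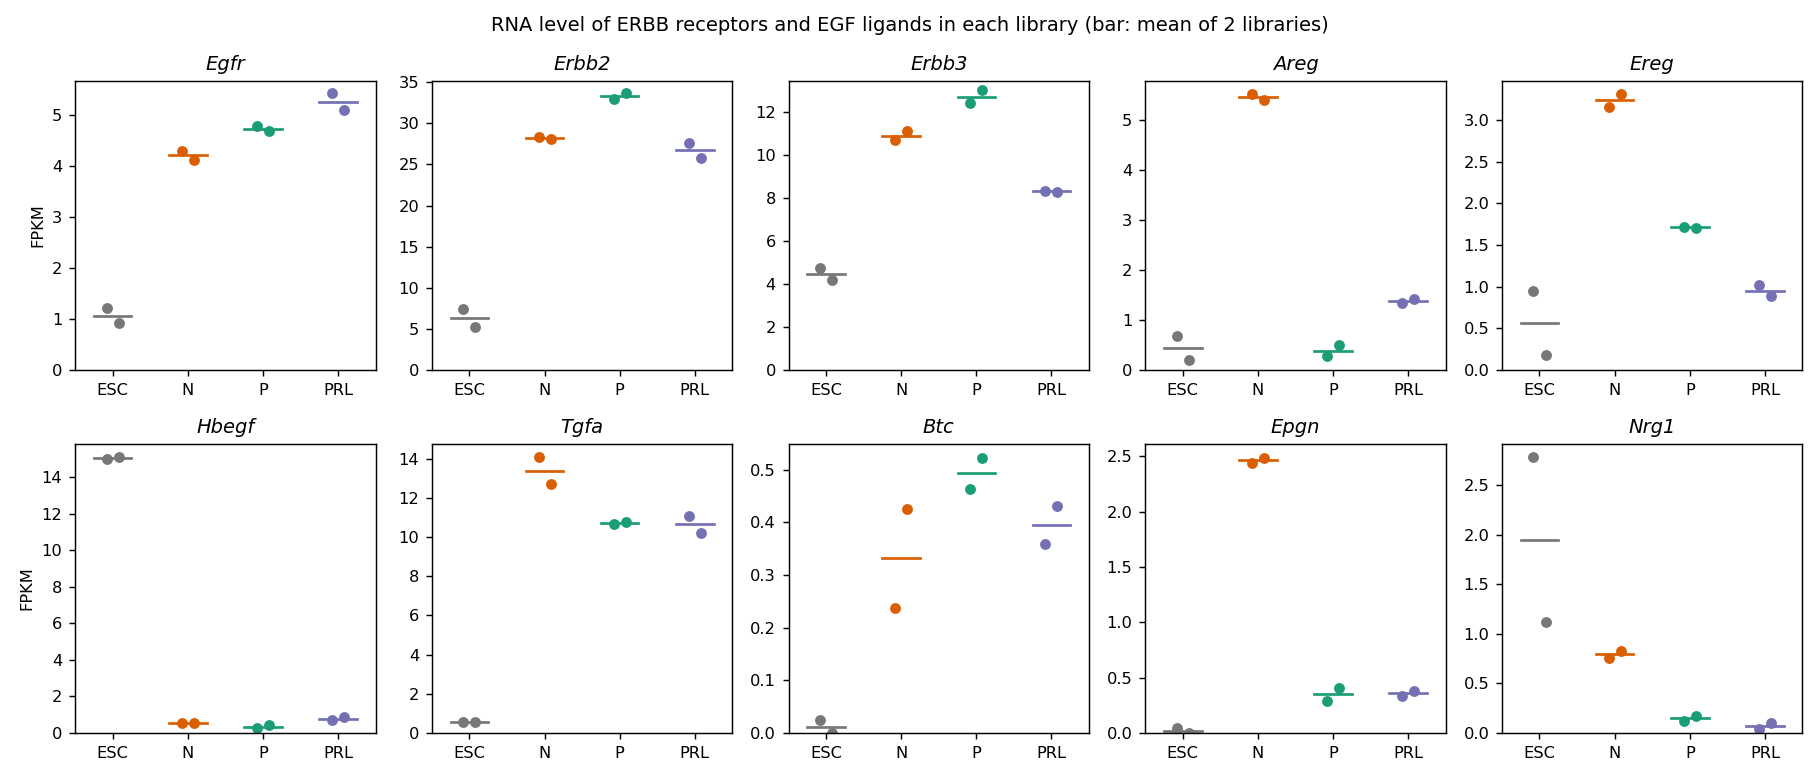
FPKM (vertical axis, linear from 0, its own scale in each panel) of the 3 receptors and 7 ligands in the ESC, N, P and PRL groups, with 1 point for each of the 2 libraries and a bar at their mean. The receptors are lowest in ESC, Hbegf and Nrg1 are highest in ESC, and Areg, Epgn, Ereg and Tgfa are highest in N.

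Among the ligands, Areg and Epgn were called in all comparisons with N, higher than ESC and lower in P and in PRL. Areg, which encodes amphiregulin, had 0.680 and 0.210 FPKM in ESC, 5.51 and 5.39 in N, 0.278 and 0.509 in P, and 1.34 and 1.43 in PRL. The N libraries stood above all others, and the ranges of ESC and P overlapped. Areg fell from N to P with a log2 fold change of -2.22 (SE 0.17, adjusted p = 0.000114 from limma). In fragments, 302 in the 2 N libraries stood against 23 in the 2 P libraries, a ratio of 13.8 for the same depth (exact 95% interval 9.03 to 22.1, which covers counting error only). The call was lost without either N library or either P library, with an adjusted p of up to 0.00222, and with a pseudocount of 0.1.

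Areg in PRL cells lay between P and N, with no overlap with either. From P to PRL the log2 fold change was 0.78 (SE 0.17, adjusted p = 0.0137 from limma), short of both thresholds, and the fragment ratio was 3.52 (2.22 to 5.80). From N to PRL it fell by 1.44 on the log2 scale (SE 0.17, adjusted p = 0.000498), a call that needed each of the 6 HC11 libraries (highest adjusted p without 1 of them 0.00689) and was lost with a pseudocount of 0.1 or 0.5 or without the filter. From ESC to N, Areg rose with a log2 fold change of 2.18 (SE 0.17, adjusted p = 2.89e-05), a call that was lost with the ESC and N libraries alone (adjusted p = 0.00131). The ESC level rests on 12 and 3 fragments.

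Epgn, which encodes epigen, a ligand of EGFR, had 0.0399 and 0 FPKM in ESC, 2.44 and 2.49 in N, 0.293 and 0.406 in P, and 0.336 and 0.381 in PRL. The 2 N libraries stood far above the rest, and P and PRL overlapped. Epgn rose from ESC to N with a log2 fold change of 1.76 (SE 0.08, adjusted p = 3.14e-06 from limma), with 1 fragment in ESC against 194 in N, a ratio of 112 (exact 95% interval 19.8 to 4440). It fell from N to P with a log2 fold change of -1.36 (SE 0.08, adjusted p = 5.02e-05), and the fragment ratio of N to P was 7.03 (4.74 to 10.8). That call was lost without either N library or without P replicate 1, with an adjusted p of up to 0.00130. From N to PRL the fall was 1.35 on the log2 scale (SE 0.08, adjusted p = 2.92e-05) and stayed called when any 1 library was left out. From P to PRL the log2 fold change was 0.01 (95% interval -0.19 to 0.21, adjusted p = 0.971), and its sign turned without P replicate 1 or PRL replicate 2.

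Ereg, the gene of epiregulin, lies between Epgn and Areg and had a different course. It had 0.953 and 0.182 FPKM in ESC, 3.16 and 3.31 in N, 1.72 and 1.71 in P, and 1.02 and 0.884 in PRL. Its level was lower in P than in N and lower again in PRL, with no overlap among the HC11 groups. Ereg rose from ESC to N with a log2 fold change of 1.48 (SE 0.22, adjusted p = 0.000712 from limma), a call that needed each of the 6 HC11 libraries (highest adjusted p without 1 of them 0.00691) and was lost with a pseudocount of 0.1 or 0.5, without the filter on low values, or with the ESC and N libraries alone. From N to P its log2 fold change was -0.64 (adjusted p = 0.0502), from P to PRL -0.48 (adjusted p = 0.134) and from N to PRL -1.12 (SE 0.22, adjusted p = 0.00495), none of them called. The difference from N to PRL was called without ESC replicate 1 (adjusted p = 2.18e-05) or ESC replicate 2, and with the N and PRL libraries alone (-1.12, adjusted p = 0.000354). The 2 ESC libraries differed 5.23-fold in Ereg, 3.25-fold in Areg and 2.49-fold in Nrg1 in the direction of the fibroblast markers, whose part in these values was not tested.

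Btc, the gene of betacellulin at the far end of the cluster, was the lowest ligand in N. It had 0.0236 and 0 FPKM in ESC, 0.238 and 0.425 in N, 0.464 and 0.523 in P, and 0.358 and 0.431 in PRL. In fragments these were 1 and 0 in ESC and 16 to 42 in the HC11 libraries. The fragment ratio of P to N was 1.49 (exact 95% interval 1.01 to 2.23), with no overlap between the libraries, and N and PRL overlapped.

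**Figure D2:**
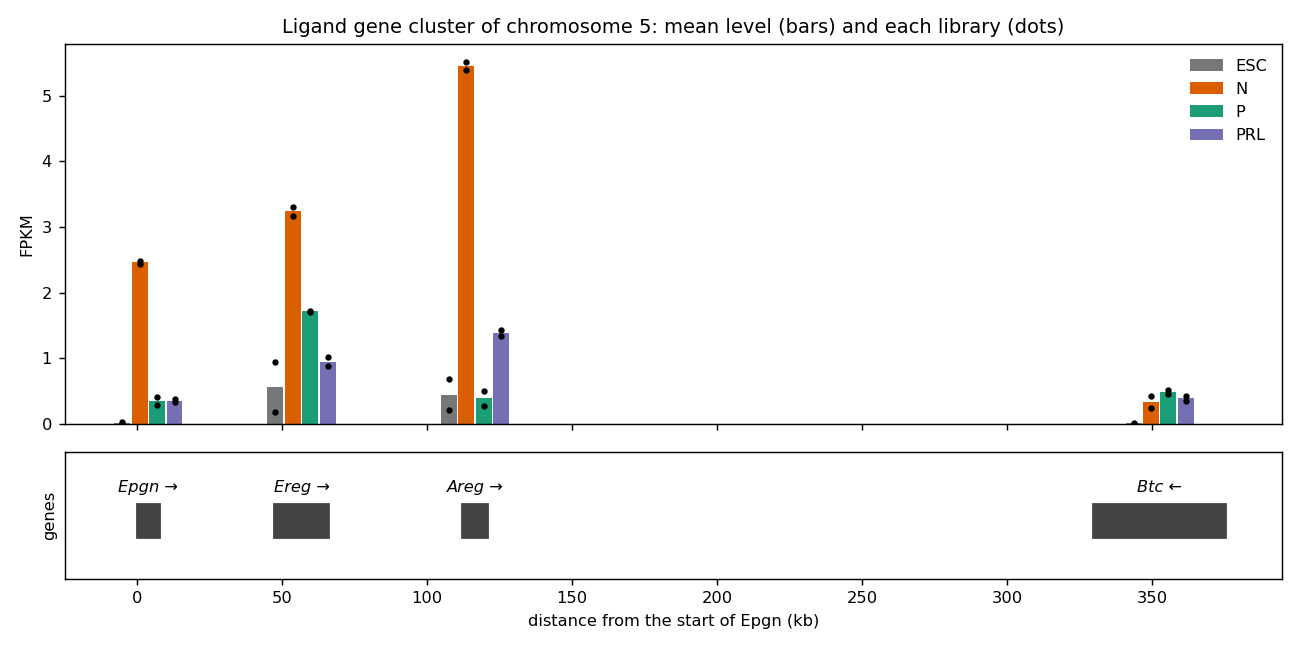
The 4 ligand genes of the chromosome 5 cluster, drawn to scale by distance in kb from the start of Epgn, with arrows for the strand. Bars above each gene show the mean FPKM of the 2 libraries of ESC, N, P and PRL and dots each library, with Areg, Ereg and Epgn highest in N and Btc below 1 FPKM in all groups.

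Tgfa, which encodes TGFα, was the most abundant ligand of the HC11 cells in all 3 groups. It had 0.579 and 0.555 FPKM in ESC, 14.1 and 12.7 in N, 10.7 and 10.8 in P, and 11.1 and 10.2 in PRL. ESC stood far below the HC11 groups, N above P and PRL, and P within the range of PRL. From ESC to N it rose with a log2 fold change of 3.20 (SE 0.09, adjusted p = 3.36e-07 from limma), a fragment ratio of 23.6 (exact 95% interval 18.4 to 30.8). From N to P the log2 fold change was -0.29 (95% interval -0.50 to -0.08, adjusted p = 0.0357), past 0.05 but far from the fold threshold. From P to PRL it was -0.01 (95% interval -0.23 to 0.20, adjusted p = 0.951), and 0.19 with median ratio scaling or quantile normalization.

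Hbegf, the gene of the heparin-binding ligand HB-EGF, was the main ligand of ESC and lies on chromosome 18. It had 15.0 and 15.1 FPKM in ESC, 0.523 and 0.533 in N, 0.281 and 0.411 in P, and 0.691 and 0.881 in PRL. The ratio of the 2 ESC libraries was 0.996 in this gene, and the HC11 libraries held 16 to 71 fragments each. Hbegf was lower in N than in ESC with a log2 fold change of -3.39 (SE 0.10, adjusted p = 4.14e-07 from limma), and the fragment ratio of ESC to N was 28.5 (exact 95% interval 21.9 to 37.8). Between P and PRL its log2 fold change was 0.41 (SE 0.10, adjusted p = 0.0213), with a fragment ratio of 2.30 (1.59 to 3.39).

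Nrg1, which encodes the ERBB3 and ERBB4 ligand neuregulin 1, had 2.78 and 1.12 FPKM in ESC, 0.754 and 0.830 in N, 0.119 and 0.174 in P, and 0.0363 and 0.0981 in PRL. Its groups did not overlap, and its measured level was lower in each HC11 group than in the one before. The step from P to PRL was not resolved. It had a fragment ratio of P to PRL of 2.06 (exact 95% interval 0.845 to 5.34) and a log2 fold change of -0.10 (adjusted p = 0.811 from limma). No difference of Nrg1 was called, at log2 fold changes of -0.66 from ESC to N (adjusted p = 0.0433 from limma), -0.64 from N to P (adjusted p = 0.0715) and -0.75 from N to PRL (adjusted p = 0.0392). All N and P libraries were below 1 FPKM, from where no fall can reach the fold threshold on the log2(FPKM + 1) scale. A call from N or P to a later group was therefore not possible, whatever the fall. The ESC libraries of Nrg1 differed 2.49-fold. The difference from ESC to N was -1.08 without ESC replicate 2, which was called, and -0.24 without ESC replicate 1. In fragments, 77 in the 2 N libraries stood against 15 in P and 9 in PRL, so that the ratio of N to P was 5.40 (exact 95% interval 3.08 to 10.1).

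Summed over the members, which FPKM allows since it is per length, receptor RNA was 13.5 and 10.3 FPKM in ESC, 43.3 in both N libraries, 50.2 and 51.3 in P, and 41.4 and 39.2 in PRL. Erbb2 made up 50.4 to 55.5% of it in ESC and 64.9 to 66.7% in the HC11 libraries. Ligand RNA summed to 20.1 and 17.2 FPKM in ESC, 26.8 and 25.7 in N, 13.8 and 14.6 in P, and 14.9 and 14.3 in PRL. The ligand sum was highest in N, where the medium held EGF, and P and PRL did not differ beyond their ranges. Hbegf made up 74.8 and 88.0% of the ligand sum in ESC. Tgfa made up 49.4 to 52.8% of it in N, 74.4 to 77.2% in P and 71.3 to 74.6% in PRL.

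**Figure D3:**
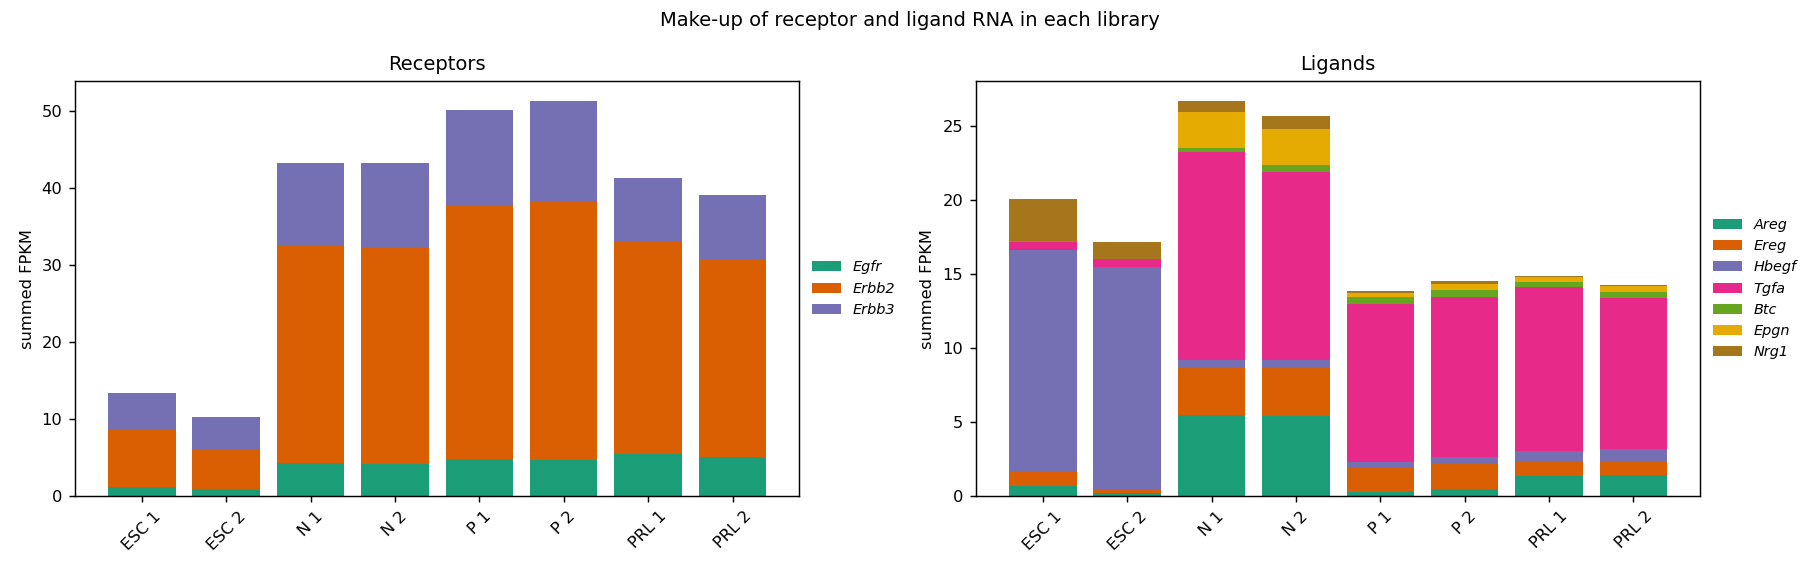
Stacked FPKM (vertical axis, linear from 0) of the 3 receptors on the left and the 7 ligands on the right in each of the 8 libraries. Erbb2 is the largest receptor block in each library, and the largest ligand block is Hbegf in ESC and Tgfa in the HC11 libraries, with Areg, Ereg and Epgn blocks that are larger in N than in P and PRL.

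Of the 9 members tested, 7 were called higher and 1 lower in N than in ESC, where 36.3% of all genes tested were called, 15.6% higher and 20.7% lower. All 9 had an adjusted p under 0.05 there, as did 77.7% of all genes. From N to P, 0 were called higher and 2 lower, against 8.64% of all genes called, 4.54% higher and 4.1% lower, and 3 had an adjusted p under 0.05, beside 45.9% of all genes. From P to PRL, limma called 0 of the 9, against 2.13% of all genes (0.689% higher and 1.44% lower), and 3 members had an unadjusted p under 0.05. The same 3, Areg, Erbb3 and Hbegf, had an adjusted p under 0.05, as did 35.4% of all genes. From N to PRL, 0 were called higher and 2 lower, against 13.5% of all genes called, 5.47% higher and 8.0% lower, and 6 had an adjusted p under 0.05, beside 53.3% of all genes. The median log2 fold change of the 9 was 1.48 from ESC to N, -0.29 from N to P, -0.01 from P to PRL and -0.35 from N to PRL, beside -0.07, 0.02, -0.15 and -0.12 over all genes tested. Since 3 of the 9 passed the filter through 1 group alone, these counts and medians describe the members and support no more. Hbegf and Nrg1 were also below 1 FPKM in N, from where no fall on the log2(FPKM + 1) scale can reach the fold threshold. The comparisons share libraries, so that N enters 3 of them.

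**Figure D4:**
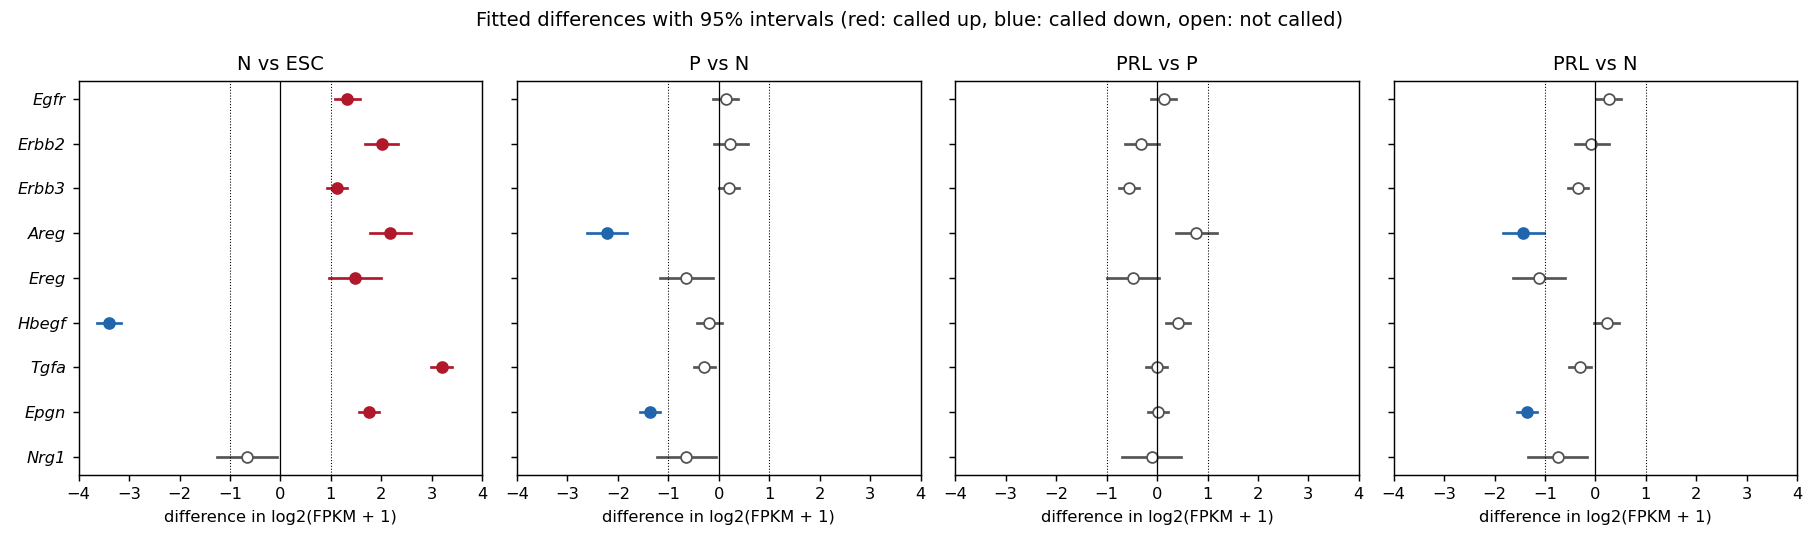
Fitted differences in log2(FPKM + 1) (horizontal axis) of the 9 members tested in a panel for each of the 4 comparisons, with 95% intervals as lines and dotted lines at 1 and -1. Filled points are called, red for higher and blue for lower, with 8 in N against ESC, Areg and Epgn in P against N and in PRL against N, and 0 in PRL against P.

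The other genes of the family were low in all groups. Erbb4, the fourth receptor, and Nrg3 were listed at 0 in all 8 libraries, and Egf, the gene of the factor given to N cells as protein, was at most 0.508 FPKM and not tested. Nrg2 had 2.14 and 1.12 FPKM in ESC, 0.0303 and 0.0926 in N, 0.633 and 0.503 in P, and 1.16 and 1.11 in PRL. It was lower in N than in ESC with a log2 fold change of -1.28 (SE 0.18, adjusted p = 0.000521 from limma), a call that needed each of the 6 HC11 libraries (highest adjusted p 0.00581). It was also lost without the filter, with quantile normalization (-0.93) and with the ESC and N libraries alone (adjusted p = 0.00683), and the ESC libraries differed 1.90-fold. Between N and PRL, Nrg2 had a log2 fold change of 1.01 (SE 0.18, limma adjusted p = 0.00316) and a fragment ratio of 18.6 (exact 95% interval 9.23 to 43.6), which was not called. The difference was called with median ratio scaling (1.09, adjusted p = 0.000989) and quantile normalization (1.16, adjusted p = 0.000233). With the N and PRL libraries alone Nrg2 was called as well (1.01, adjusted p = 0.000177). Its measured order among the HC11 groups was the reverse of that of Nrg1, whose step from P to PRL was not resolved. Nrg4 had 1.83 and 0.999 FPKM in ESC and 0.428 to 1.04 in the HC11 libraries, and was not called in any comparison.

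Around the receptors, 12 genes of ligand release were tested, of which 4 were called higher and 2 lower in N than in ESC, beside 15.6% and 20.7% of all genes. Timp3, an inhibitor of ADAM17, was at 16.1 and 3.49 FPKM in the ESC libraries and at 266 and 274 in N (4.95 on the log2 scale, SE 0.53, limma adjusted p = 0.000149). Its ESC libraries differed in the direction of the fibroblast markers, whose part was not tested, and the difference was 3.99 to 5.92 when 1 library was left out, with the call lost without either N library. Rhbdf1, the iRhom1 that carries ADAM17 to the cell surface, was at 7.85 FPKM in ESC and 56.9 in N (2.73, SE 0.15, adjusted p = 5.98e-06). From N to P only Adam12 of this list was called, or 8.33% beside 8.64% of all genes, lower with a log2 fold change of -1.11 (adjusted p = 0.000142), a call that needed each of the 6 HC11 libraries. In PRL compared to N, Adam12 and Adam8 were lower, 16.7% of the list beside 13.5% of all genes called, with Adam8 at 12.9 FPKM in N and 2.88 in PRL (-1.84, adjusted p = 0.00014, lost without either N or either PRL library). Adam17, which is outside the naming rule and was chosen after its values were seen, was at 12.0 FPKM in N, 10.2 in P and 5.89 in PRL, with a log2 fold change of -0.92 from N to PRL (adjusted p = 0.00169) that was not called. Between P and PRL 0 of the 12 were called by limma, beside 2.13% of all genes, and 7 had an unadjusted p under 0.05. The adjusted p was under 0.05 for 6 of the 12, beside 35.4% of all genes.

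Of 17 genes listed for restraint or turnover of the receptors, 5 were called higher and 1 lower in N than in ESC, which is 35.3% beside 36.3% of all genes. Not every gene of this list is an inhibitor of the receptors. Limma called 0 of them in P against N and in PRL against P, where 9 and 7 had an unadjusted p under 0.05 and 8.64% and 2.13% of all genes were called. The adjusted p was under 0.05 for 6 and 5 of the 17, beside 45.9% and 35.4% of all genes. Between N and PRL, 2 were called higher, 11.8% of the list beside 13.5% of all genes. Errfi1, an inhibitor that binds the EGFR kinase, was at 19.4 and 20.7 FPKM in N, 29.3 and 32.0 in P, and 51.4 and 50.0 in PRL (1.30 on the log2 scale from N to PRL, SE 0.10, limma adjusted p = 6.57e-05). Lrig3, a transmembrane protein of the LRIG family, was at 3.83, 8.79 and 15.8 FPKM (1.80, SE 0.17, adjusted p = 0.000175). The call of Errfi1 was lost without N replicate 1 or either PRL library, and that of Lrig3 without either N or either PRL library.

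Of 21 genes of adaptors and RAS activation, 2 were called higher and 1 lower in N than in ESC, a share of 14.3% beside 36.3% over all genes. Limma called 0 from P to PRL, beside 2.13% of all genes, and 11 had an unadjusted p under 0.05. The adjusted p was under 0.05 for 9 of the 21, beside 35.4% of all genes. Pik3r1 alone was called from N to P and from N to PRL, 4.76% of the list in each case beside 8.64% and 13.5% of all genes. It encodes a regulatory subunit of PI3-kinase that binds ERBB3, and was at 11.6 FPKM in N, 65.0 in P and 54.1 in PRL (2.39 on the log2 scale from N to P, SE 0.18, limma adjusted p = 0.000114, lost without either N or either P library). Pik3r2, the gene of another regulatory subunit, was at 89.3, 109 and 76.4 FPKM in these groups and was not called between them. Of 11 tested genes of the RAF, MEK and ERK kinases, 2 were called lower in N than in ESC, Ksr1 and Rps6ka2, or 18.2% beside 36.3% of all genes. Between HC11 groups limma called 0 of the 11, while 4 had an unadjusted p under 0.05 from N to P, 6 from P to PRL and 8 from N to PRL, and 8.64%, 2.13% and 13.5% of all genes were called there. The adjusted p was under 0.05 for 3, 6 and 6 of the 11, beside 45.9%, 35.4% and 53.3% of all genes.

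Of 15 genes whose transcription is known to follow ERK activity, 0 were called higher and 5 lower from N to P, beside 4.54% and 4.1% of all genes, and the same 5 were lower from N to PRL, beside 8.0% of all genes. These were Dusp6, Dusp4, Spred2, Etv4 and Etv5, which encode phosphatases of ERK, an inhibitor of RAS signalling and a pair of ETS factors. Dusp6 was at 62.8 FPKM in N, 7.44 in P and 4.32 in PRL (-2.92 on the log2 scale from N to P, SE 0.10, limma adjusted p = 7e-06), and Etv4 at 11.8, 0.115 and 0.171 FPKM (-3.52, SE 0.10, adjusted p = 4.07e-06). The calls of Dusp6, Dusp4, Etv4 and Etv5 held without any 1 library, and that of Spred2 from N to P needed each of the 6 HC11 libraries. Not all of the list was lower, as Phlda1 was at 87.0 FPKM in N and 207 in P (1.25, adjusted p = 0.00598), which was not called. Compared to ESC, 7 of the 15 were called lower and 3 higher in N, beside 20.7% and 15.6% of all genes, with 152 FPKM of Etv5 in ESC against 8.37 in N, and 0.962 FPKM of Egr1 against 54.7. Limma called 0 of the 15 from P to PRL, beside 2.13% of all genes, and 6 had an unadjusted p under 0.05. The adjusted p was under 0.05 for 6 of the 15, beside 35.4% of all genes.

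Among 7 heparan sulfate proteoglycans and other membrane partners of the ligands, 5 were called higher and 1 lower in N than in ESC, beside 15.6% and 20.7% of all genes. Sdc1, the gene of syndecan 1, was at 21.8 and 11.6 FPKM in ESC and at 190 and 180 in N (3.45 on the log2 scale, SE 0.24, limma adjusted p = 1.9e-05, and 3.03 to 3.88 when 1 library was left out). From N to P the tetraspanin genes Cd82 and Cd81 were called higher, beside 4.54% of all genes, Cd82 from 12.4 to 56.7 FPKM (2.12, adjusted p = 0.000435) and Cd81 from 127 to 344 FPKM (1.43, adjusted p = 0.000554). Both calls needed each of the 6 HC11 libraries. Cd9, a tetraspanin that associates with HB-EGF, was at 415 FPKM in N and 578 in P and was not called between these. From P to PRL limma called 0 of the 7, beside 2.13% of all genes, and 1 had an unadjusted p under 0.05. The adjusted p was under 0.05 for 1 of the 7, beside 35.4% of all genes. The median log2 fold change from N to P, 0.02 over all genes tested, was -0.87 for the ERK output list, -0.19 for ligand release, -0.03 for receptor restraint and turnover, 0.02 for adaptors, -0.04 for the kinases and 0.47 for the proteoglycans and tetraspanins. These lists are described by their counts and medians only.

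The 5 members whose mean reached 5 FPKM in some HC11 group were each set beside all other genes tested, and the 3 genes with the most similar course over the 8 libraries were taken, by the root mean square difference of centred log2(FPKM + 1). These are descriptions over 8 libraries of 4 groups that share their depth. The nearest genes to Egfr were Tfap2c, Fam188b and Clstn1, with differences of 0.06, 0.06 and 0.07 on the log2 scale, and Tfap2c, which encodes an AP-2 transcription factor, was at 8.35 FPKM in ESC, 23.8 in P and 25.5 in PRL. Those nearest to Erbb2 were Cacfd1, Tmem53 and Sdcbp (0.06 to 0.08), to Erbb3 Parp9, Col25a1 and Gm16675 (0.04 to 0.06), and to Tgfa Fbxo36, Mpzl3 and Ugp2 (0.11 to 0.13). Some of these genes were low, and the log2(FPKM + 1) scale makes their courses look closer than their ratios. Col25a1 was at 0.00909 FPKM in ESC and 1.23 in N, Gm16675 at 0 and 1.12, and Fam188b at 0.415 and 2.86. Erbb3 itself was at 4.49 and 10.9 FPKM. Areg had no gene as close. Genes near it included Cyp51, an enzyme of cholesterol synthesis, at 0.33, and Gm6460 at 0.35. Cyp51 was at 27.7 FPKM in N, against 8.91 in ESC, 8.86 in P and 10.9 in PRL.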

How the data were processed

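RNA was measured in 8 libraries, 2 each of ESC, N, P and PRL. The authors trimmed adaptors with Trimmomatic, mapped paired reads to GRCm38/mm10 with TopHat2 and obtained counts per gene with Subread featureCounts. The strand setting and the gene annotation are not given in the sources used here, so that reads of overlapping antisense genes may be included. The deposited table holds FPKM that the authors computed for each library. The 4 tables of the authors' own DESeq2 comparisons, with fold changes, standard errors, p-values and 8 columns of group mean counts, were not used.

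FPKM steps gave whole fragments per library (tolerance 0.02 fragments, 12189 genes), which served for depth and for ratios with exact binomial 95% intervals that cover counting error only. No count model was fitted. Total fragments ranged 2.841-fold.

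Of 24062 genes, 13210 with at least 1 FPKM in at least 2 libraries were tested with limma 3.58.1 in R 4.3.3 (trend and robust, statmod 1.5.0) on log2(FPKM + 1). One model held all 4 groups and no replicate block (4 residual degrees of freedom, median prior 2.57), with Benjamini-Hochberg adjustment over all genes tested. Calls needed an absolute log2 fold change of 1 and an adjusted p under 0.001, the study's thresholds. Alternatives were other pseudocounts, filters, scalings, thresholds, sets of libraries, a replicate block and leaving out each library.

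The members and lists were chosen with earlier results of these data known. The text names all members, the other family genes, up to 4 called genes and up to 2 abundant uncalled genes of each list, and the 3 nearest genes of members with at least 5 FPKM in a HC11 group. One gene that this rule gives is not reported here. Motifs were searched with Python 3.11.15 (pandas 2.3.3, numpy 2.4.6, scipy 1.17.1), and figures were drawn with matplotlib 3.10.9.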

Additional observations from a re-analysis of the deposited data

How the results depend on the processing

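Counts of calls and the fold changes of the family genes were recomputed under 10 alternatives and without each library in turn, and fold changes of pathway genes only without each library. Summed levels, fragment ratios and nearest genes were not recomputed. The count of members called in N against ESC, 8, fell to 3 (Hbegf, Epgn and Tgfa) when only the libraries of the compared groups were fitted, and was 7 to 9 without 1 library. The 2 called in P against N became 1 with a pseudocount of 0.1 (Epgn) and 1 with a filter at 5 FPKM (Areg, with Epgn not tested), and 0 to 2 without 1 library, being 0 without N replicate 1, N replicate 2 or P replicate 1. In PRL against P, 0 became 3 at an adjusted p under 0.05 with no fold threshold, and stayed at 0 without 1 library. The 2 called in PRL against N became 1 with a pseudocount of 0.1 or 0.5, no filter or a filter at 5 FPKM, 3 (Epgn, Ereg and Areg) with the libraries of the compared groups only, 6 at an adjusted p under 0.05 with no fold threshold, and 1 to 3 without 1 library. Signs turned only in differences that were not called. Nrg4 in P against N was -0.00 with quantile normalization, Tgfa in PRL against P was 0.19 with median ratio scaling, 0.19 with quantile normalization and -0.07 to 0.04 when 1 library was left out, Epgn in PRL against P was -0.05 to 0.07 when 1 library was left out, and Erbb2 in PRL against N was 0.13 with median ratio scaling and 0.05 with quantile normalization.

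The labels give the same replicate numbers to all groups but no shared source. Deviations of same-numbered libraries correlated by -0.028 to 0.082 across tested genes. A fit with the replicate block called 7 members in N against ESC (without Ereg), 2 in P against N, 0 in PRL against P and 1 in PRL against N (without Areg).

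Over all genes, 281 were called in PRL against P, but 605 with the libraries of the compared groups only, 110 without a filter, 45 with the replicate block and 1 to 636 without 1 library. Without 1 library, 310 to 1467 genes were called in P against N (1141 with all) and 852 to 2165 in PRL against N (1780 with all), and in N against ESC 2164 with the libraries of the compared groups only (4795 with all). With 2 libraries a group and Areg, Epgn, Btc, Hbegf and Nrg1 at few fragments in some groups, differences of these genes among low groups were near the limit of this depth.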
